A study of Mus musculus with 6 samples.

Results

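The SLAM family receptors and their SAP-type adaptors were described here through 10 genes out of the 24499 in the deposited gene table: the receptors *Slamf1*, *Cd48*, *Ly9*, *Cd244*, *Cd84*, *Slamf6*, *Slamf7* and *Slamf9* and the adaptors *Sh2d1b1* and *Sh2d1b2*. The genes were found by symbol. The family was taken because *Sh2d1b1* was nearly absent from the *Eif3e*-deficient libraries, so the *Sh2d1b1* difference between the groups is the selection itself and is given as a description. SLAM receptors are immunoglobulin superfamily molecules of leukocytes, most of which bind the same receptor on a neighbouring cell, while CD244 binds CD48. Their tails carry tyrosine switch motifs that are bound by small SH2-domain adaptors, namely SAP (*Sh2d1a*), EAT-2 (*Sh2d1b1*) and, in the mouse, ERT (*Sh2d1b2*). In lymphoid tissue they are known for T–B cell adhesion and for the control of NK cell killing.

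RNA-seq was performed on day 3 iGCBs, which are germinal center-like B cells made in vitro, with 3 cKO and 3 control replicates. Naïve splenic B cells of C57BL/6J mice were grown with IL-4 (1 ng/ml) on 40LB cells, a BALB/c 3T3 fibroblast line expressing CD40L and BAFF that had been irradiated at 120 Gy, and YFP+ cells were sorted. cKO mice carried floxed *Eif3e* alleles (fl/fl), *Cγ1*Cre and the *Rosa26*-YFP LSL reporter. Cre comes on in activated B cells when the Ig γ1 locus is transcribed, and YFP marks cells that have had Cre. The sample labels give the other genotype only as control. For other experiments the study describes control animals as *Cγ1*Cre mice with the same reporter. If that holds here, both groups carry Cre and the reporter. The study calls the replicates biological. Whether each came from 1 mouse is not given in the sources used here, and p-values measure the spread between these libraries. Ages were not labelled, and the general culture protocol gives a longer culture than the day 3 in the titles.

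Libraries held 39079582 to 45504570 estimated counts. At these totals 3 counts, the floor for a count of 0, equal 0.0661 to 0.0763 CPM (counts scaled to library size, here with edgeR's TMM factors). That floor covers counting error only and takes each estimated count as 1 fragment. The level of *Eif3e* was 158 ± 13.1 CPM in the cKO and 406 ± 16.5 CPM in the control group (SD, n = 3 each). These counts cover the whole gene, not the deleted exons alone. RNA from deleted alleles and RNA of undeleted cells thus cannot be told apart. *Xist* counts were 53272 in cKO replicate 2, 58899 and 70912 in control replicates 1 and 2, and 0 to 16 in the other libraries, so each group held libraries with and without it. B cell markers summed to 4655 to 4837 CPM in cKO and 4481 to 4815 CPM in control libraries. Fibroblast feeder markers summed to 91.0 to 106 CPM in cKO and 59.4 to 117 CPM in control libraries. Of these 9, 6 were tested, with 1 called higher (*Fn1*) and 1 lower (*Thbs1*), against 10.4% and 10.6% of all genes tested. *Lum* and *Postn* were at 0 in every library. The adjusted p-values below come from edgeR's quasi-likelihood test over all 13296 genes tested, and a gene is called where the adjusted p is under 0.05 and the change is over 1.5-fold.

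*Sh2d1b1* encodes EAT-2, the adaptor best known from NK cells and other innate leukocytes. It had 0, 0 and 2 counts in cKO replicates 1, 2 and 3, and 59, 98 and 66 counts in control replicates 1, 2 and 3. The groups did not overlap. The control level was 1.80 ± 0.617 CPM (SD, n = 3), a low level even where the gene was detected. Summed over libraries and scaled by library size, the cKO counts were 0.848% of the control counts. A 95% interval from the summed counts was 0.102% to 3.1%. That interval takes each estimated count as 1 fragment, which need not hold, and leaves out the spread between libraries. The fitted log2 fold change of *Sh2d1b1*, −6.64, moved between −9.28 and −6.12 over the settings tried and is not a bound.

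*Sh2d1b2*, the neighbouring paralog that encodes ERT, was listed at 0 in all 6 libraries, and so was *Sh2d1a*, which encodes SAP. Of the 3 adaptor genes, *Sh2d1b1* was the one with counts. The coding sequences of *Sh2d1b1* and *Sh2d1b2* matched at 362 of 395 aligned bases (91.6%), and their longest shared run was 154 bases, so short reads can be shared between them and the split rests on the authors' counting. The genes lie side by side on chromosome 1 of GRCm38 (GENCODE M21), *Sh2d1b2* at chr1:170232749-170253608 and *Sh2d1b1* at chr1:170277320-170286769, both on the plus strand.

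The paralogs also share sequence ahead of their starts, shown here because one was detected in the control libraries and the other was not. Their RefSeq promoter windows on GRCm38.p6, 250 bases before to 50 after the start, matched at 221 of 239 aligned bases (92.5%). The stretches of 100 bases below, at chr1:170277131-170277230 for *Sh2d1b1* and chr1:170232623-170232722 for *Sh2d1b2*, lie upstream of both annotated genes, and capitals mark the 12 bases that differ.
Sh2d1b1: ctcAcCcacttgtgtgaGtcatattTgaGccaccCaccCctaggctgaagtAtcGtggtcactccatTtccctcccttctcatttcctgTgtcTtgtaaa
Sh2d1b2: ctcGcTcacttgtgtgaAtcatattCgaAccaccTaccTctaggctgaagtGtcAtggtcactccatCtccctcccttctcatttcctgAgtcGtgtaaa
From position 15 of this stretch *Sh2d1b1* reads TGAGTCA, the letters of the AP-1 motif, and *Sh2d1b2* reads TGAATCA, the substitution G4A counted from the first base of the motif. The motif was picked after these letters had been seen. Searched as TGAGTCA on both strands, it was found 2 times in the *Sh2d1b1* window, 207 and 173 bases upstream of the start, and once each in those of *Cd244*, *Slamf7* and *Cd84*. The *Sh2d1b2* window begins close to the stretch shown, so it does not reach the counterpart of the *Sh2d1b1* site at 207 bases. RefSeq gave windows for 9 members. With the *Sh2d1b1* window set aside, since the motif was read from it, 3 of 8 held a match. The motif was in 5.2% of 32851 promoter windows of the same length, with 0.222% holding 2 or more. *Ly9* had no entry. Nothing is read from this share, and whether the motif bears on the counts of either paralog was not tested.

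Of the 8 receptors, *Cd244* and *Slamf9* were at the same low level as *Sh2d1b1* in control libraries. *Cd244* encodes 2B4, the receptor for CD48. It had 16, 7 and 12 counts in cKO replicates 1, 2 and 3, and 64, 69 and 91 counts in control replicates 1, 2 and 3. Every cKO library was below every control library. The means were 0.264 ± 0.0999 CPM in cKO and 1.80 ± 0.397 CPM in control libraries (SD, n = 3 each). *Cd244* fell by 2.75 on the log2 scale (standard error 0.45, adjusted p = 0.000583, edgeR's quasi-likelihood test), to 14.8% of control. It passed the filter on low counts only through the control libraries, and without that filter its adjusted p from edgeR was 6e-04. Leaving out each library in turn, its log2 fold change stayed between −3.02 and −2.48.

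*Slamf9* encodes a family member with a short tail that lacks the tyrosine switch motif. It had 11, 0 and 10 counts in cKO replicates 1, 2 and 3, and 25, 61 and 44 counts in control replicates 1, 2 and 3. The groups did not overlap, though the lowest control library held only 25 counts. *Slamf9* fell by 2.71 on the log2 scale (standard error 0.84, adjusted p = 0.022 from edgeR). It also passed the filter only through the control libraries, and without the filter its adjusted p from edgeR was 0.0339. This call was lost without control replicate 2, the library with most counts (log2 fold change −2.33, adjusted p = 0.0926). The single transcript of *Slamf9*, with the same counts, was not called in the edgeR test over transcripts (adjusted p = 0.161).

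**Figure D1:**
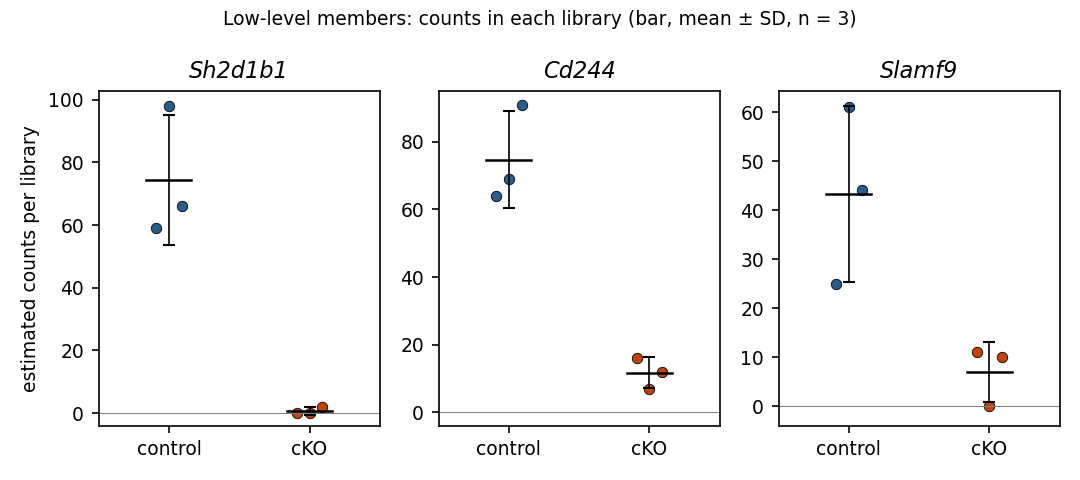
Estimated counts of the 3 low-level members in each control and cKO library, with horizontal bars for the group mean and whiskers for 1 SD (n = 3 each) and 1 point per library. *Sh2d1b1* has 0 to 2 counts in cKO and 59 to 98 in control libraries, *Cd244* 7 to 16 and 64 to 91, and *Slamf9* 0 to 11 and 25 to 61.

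The filter on low counts asked for about 0.229 CPM in 3 libraries. *Sh2d1b1* reached that level in 0 cKO libraries, and *Cd244* and *Slamf9* in 2 each, so these 3 genes entered the test only through the control libraries, where they were high. *Sh2d1b2* was not tested. Of the 9 members tested, 0 were called higher and 4 lower in cKO (*Sh2d1b1*, *Slamf9*, *Ly9* and *Cd244*), where 21% of all genes tested were called, 10.4% higher and 10.6% lower. DESeq2 also called 0 higher, and at an unadjusted p under 0.05 in edgeR, without a fold cutoff, 1 member was higher. With *Sh2d1b1* set aside, 3 of 8 were called lower. Nothing is read from this share, since the family was chosen on the same contrast.

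Because these libraries are bulk RNA, fewer cells of a kind and less RNA per cell cannot be told apart. *Sh2d1b1* and *Cd244* are also NK cell genes. NK cell markers summed to 2.02 to 3.75 CPM in cKO and 6.68 to 10.1 CPM in control libraries. Of the 7, *Ncr1* and *Klrk1* were listed at 0 in every library, *Eomes* was at 0 in every control library, and *Gzma* had 4 counts in 1 library. *Prf1*, which encodes perforin, made up most of the sum, at 1.8 to 2.89 CPM in cKO and 6.46 to 9.49 CPM in control libraries, and the other 6 summed to 0.222 to 0.86 CPM in cKO and 0.219 to 1.37 CPM in control libraries. T cell markers summed to 12.9 to 24.2 CPM in cKO and 26.4 to 37.1 CPM in control libraries. Of the 7 T cell markers *Cd3e* was at 0 in every library, *Cd3d*, *Cd3g*, *Cd4* and *Cd8a* had at most 10 counts in any library, and *Thy1* and *Lat* made up nearly all of the sum. Myeloid and dendritic cell markers summed to 54.9 to 68.7 CPM in cKO and 61.2 to 65.7 CPM in control libraries. Of these 11, 7 were tested, with 2 called higher (*Adgre1* and *Zbtb46*) and 1 lower (*Flt3*), against 10.4% and 10.6% of all genes tested. *Siglech* was at 0 throughout and *Csf1r* at 0 to 4 counts. The near-equal sums of this list thus hold moves in both directions.

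Plasma cell markers summed to 960 to 1129 CPM in cKO and 1326 to 1387 CPM in control libraries, with 4 of 6 called lower and 1 higher (*Sdc1*), where 10.6% and 10.4% of all genes tested were, *Irf4* not called at a log2 fold change of 0.42, and none at 0 in a library. Germinal center markers summed to 247 to 257 CPM in cKO and 277 to 324 CPM in control libraries, with 1 of 4 called lower and 0 at 0 in every library. The part of these cell states in the values of the family was not tested.

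*Ly9* encodes SLAMF3 (CD229), a self-binding receptor of T and B cells. It stood at 161, 141 and 148 CPM in cKO replicates 1, 2 and 3, and at 271, 270 and 285 CPM in control replicates 1, 2 and 3. All cKO libraries were far below all control libraries, and the counts behind each value were 6272 or more. *Ly9* fell by 0.88 on the log2 scale (standard error 0.06, adjusted p = 2.96e-06 from edgeR), to 54.5% of control with a 95% interval of 0.50-fold to 0.60-fold. It lies at chr1:171588624-171607410 on the minus strand. The GENCODE span of *Cd244*, chr1:171559193-171609746 on the plus strand, runs across it, while the RefSeq spans of the 2 genes do not overlap. In the deposited transcript table all counts of *Cd244* were on the RefSeq transcript NM_018729, whose span ends before *Ly9* starts.

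*Ly9* had 3 RefSeq transcripts in the deposited transcript table. The full-length coding transcript NM_008534 held 77.9%, 54.4% and 75.3% of the gene's counts in cKO replicates 1, 2 and 3, against 59.8%, 61.7% and 69.2% in the control replicates in the same order. The transcript NR_102726, which RefSeq lists as non-coding, held 19.2%, 44.0% and 22.3% in cKO and 39.1%, 37.9% and 30.8% in control libraries. NM_001277968, a shorter coding form, held the least. Its shares were 2.83%, 1.68% and 2.42% in cKO and 1.12%, 0.415% and 0% in control libraries, which do not overlap but rest on at most 207 counts. The shares of the other 2 transcripts overlapped between groups, with those of cKO replicate 2 apart from the other 2 cKO libraries.

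In levels, NM_008534 was at 126, 76.2 and 112 CPM in cKO and 162, 167 and 198 CPM in control libraries. NR_102726 was at 31.0, 61.6 and 33.1 CPM in cKO and 106, 102 and 87.8 CPM in control libraries. Neither transcript's cKO range reached its control range. NM_008534 fell by 0.75 on the log2 scale (adjusted p = 0.0401) and NR_102726 fell by 1.24 (adjusted p = 0.0269) in the edgeR test over 18040 transcripts. Of the 13 member transcripts tested, 4 were called lower, those 2 and the single transcripts of *Cd244* and *Sh2d1b1*, where 6.8% of all transcripts tested were called lower and 6.26% higher. Nothing is read from this count, since the *Sh2d1b1* transcript is the selection itself and that of *Cd244* was high in control libraries alone. The *Ly9* transcript calls were lost in most fits that left out 1 library, while the direction and most of the size stayed. With each library left out in turn, NM_008534 was called only without cKO replicate 1 (log2 fold changes of −0.90 to −0.56 and adjusted p of 0.0365 to 0.12 over the 6 fits) and NR_102726 only without cKO replicate 2 (−1.62 to −1.06 and 0.00541 to 0.0831), and the cause was not tested. In edgeR's diffSpliceDGE, which tests a transcript against the rest of its gene, 0 of the 6 transcripts of *Ly9* and *Cd84* passed and 0 had an unadjusted p under 0.05, where 0.615% of 7646 transcripts passed.

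**Figure D2:**
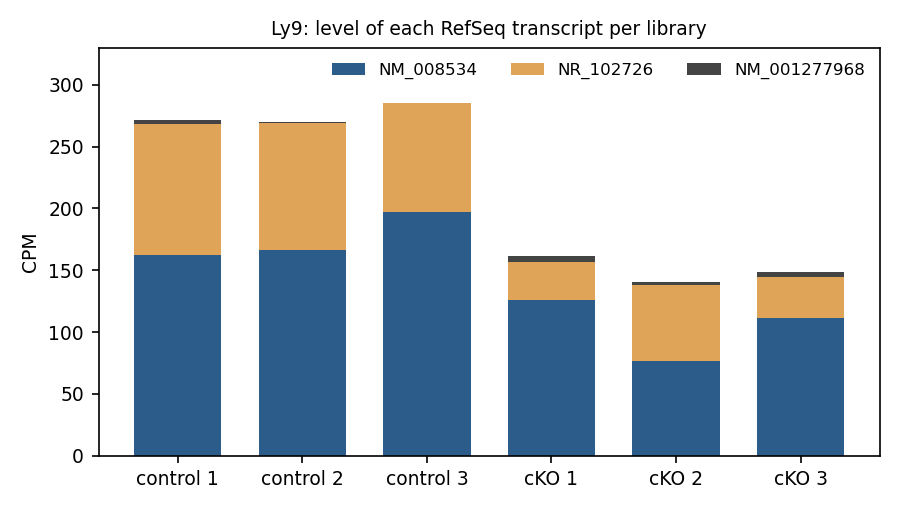
CPM of the 3 *Ly9* RefSeq transcripts in each library, stacked from 0. The height of a bar is the gene's level, between 270 and 285 CPM in control and between 141 and 161 CPM in cKO libraries, and cKO replicate 2 holds more of the non-coding NR_102726 than the other cKO libraries.

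*Cd84* (SLAMF5), a self-binding receptor that supports lasting T–B contacts, changed less than *Ly9*. It stood at 24.2, 21.3 and 24.2 CPM in cKO replicates 1, 2 and 3, and at 32.0, 35.6 and 32.2 CPM in control replicates 1, 2 and 3. The groups did not overlap. *Cd84* fell by 0.52 on the log2 scale (standard error 0.09, adjusted p = 0.00101 from edgeR), which is under the 1.5-fold cutoff, so it was not called. Its main transcript, NM_013489, held 83.7% to 98.3% of the counts of the gene.

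*Slamf1* encodes SLAM (CD150), the receptor that gives the family its name. It stood at 24.8, 24.0 and 26.5 CPM in cKO replicates 1, 2 and 3, and at 16.97, 17.7 and 20.5 CPM in control replicates 1, 2 and 3. Here every cKO library was above every control library. *Slamf1* was the 1 member that was higher by the test alone, at 1.37-fold or 0.45 on the log2 scale (standard error 0.10, adjusted p = 0.00446 from edgeR), again under the 1.5-fold cutoff.

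*Slamf7* (CRACC) is an activating receptor that works with EAT-2 in NK cells and is abundant in antibody-secreting cells. It stood at 365, 348 and 364 CPM in cKO replicates 1, 2 and 3, and at 406, 431 and 388 CPM in control replicates 1, 2 and 3. The groups did not overlap, but they lay close together. *Slamf7* fell by 0.18 on the log2 scale (standard error 0.05, adjusted p = 0.0164 from edgeR), to 88.0% of control. Its adjusted p was 0.0577 without cKO replicate 2 and 0.0578 without control replicate 2.

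*Slamf6* (Ly108) and *Cd48* were the members whose groups overlapped. *Slamf6*, a self-binding receptor of T and B cells, stood at 298, 281 and 294 CPM in cKO replicates 1, 2 and 3, and at 285, 291 and 253 CPM in control replicates 1, 2 and 3. *Cd48*, the GPI-anchored ligand of CD244, stood at 135, 127 and 117 CPM in cKO replicates 1, 2 and 3, and at 123, 121 and 119 CPM in control replicates 1, 2 and 3. The log2 fold change of *Slamf6* was 0.07 (adjusted p = 0.355 from edgeR), with a 95% interval of −0.06 to 0.21. That of *Cd48* was 0.06 (adjusted p = 0.429 from edgeR), with a 95% interval of −0.07 to 0.20. A change of 1.5-fold lay outside both intervals. RNA of the ligand gene *Cd48* was thus abundant in both groups, while that of its receptor gene *Cd244* was scarce in control and lower still in cKO libraries.

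By adjusted p alone, at any fold, 1 of the 9 members tested was higher and 6 were lower, where 48.6% of all genes tested passed (24.1% higher and 24.5% lower). The groups did not overlap for 7 of the 9, against 58.7% of all genes tested. With *Sh2d1b1* set aside, 1 of 8 was higher, 5 were lower and 6 did not overlap, and nothing is read from these counts either. Split by *Xist*, 1 cKO library stood against 2 control libraries with it and 2 cKO libraries against 1 control library without it, which is too few for a test. On log2(CPM + 0.5), *Ly9* differed by −0.94 with and −0.88 without *Xist*, *Cd244* by −1.67 and −1.73, *Slamf9* by −1.56 and −1.09, *Cd84* by −0.65 and −0.40, *Slamf7* by −0.27 and −0.09, *Slamf1* by 0.46 and 0.32, *Cd48* by 0.06 and 0.08, and *Slamf6* by −0.04 and 0.22. The sign differed for *Slamf6* alone of the 8 receptors.

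Levels of different genes can be compared only per length, as CPM per kb of transcript, each transcript divided by its own length. In control libraries the receptors fell into 3 tiers. *Slamf6* (111 ± 8.20), *Ly9* (111 ± 3.42), *Slamf7* (103 ± 5.49) and *Cd48* (102 ± 1.49) were the most abundant in CPM per kb (SD, n = 3 each), with the libraries of *Slamf6* overlapping those of each of the other 3. *Cd84* (11.1 ± 1.07) and *Slamf1* (6.83 ± 0.69) formed a middle tier. *Slamf9* (0.806 ± 0.38), *Sh2d1b1* (0.708 ± 0.243) and *Cd244* (0.477 ± 0.106) were lowest in CPM per kb, and their libraries overlapped.

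In cKO libraries *Ly9* left the top group. It stood at 60.6 ± 4.29 CPM per kb, below all libraries of *Slamf6* (117 ± 3.63), *Cd48* (106 ± 7.75) and *Slamf7* (90.3 ± 2.52) (SD, n = 3 each). Within a library, *Ly9* per kb was 0.545, 0.502 and 0.505 times *Slamf6* in cKO replicates 1, 2 and 3, against 0.95, 0.929 and 1.13 times in the control replicates in the same order. This ratio does not depend on library scaling, and its groups did not overlap.

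The middle tier changed order. *Slamf1* per kb was 0.583, 0.538 and 0.751 times *Cd84* in control replicates 1, 2 and 3, against 1.25, 1.16 and 1.17 times in the cKO replicates in the same order. *Cd84* was thus the higher of the pair in all 3 control libraries and *Slamf1* in all 3 cKO libraries. Summed over the 8 receptors, the level was 381 to 408 CPM per kb in cKO and 434 to 456 CPM per kb in control libraries, and the 4 most abundant receptors gave 95.2% to 96.0% of it in every library.

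**Figure D3:**
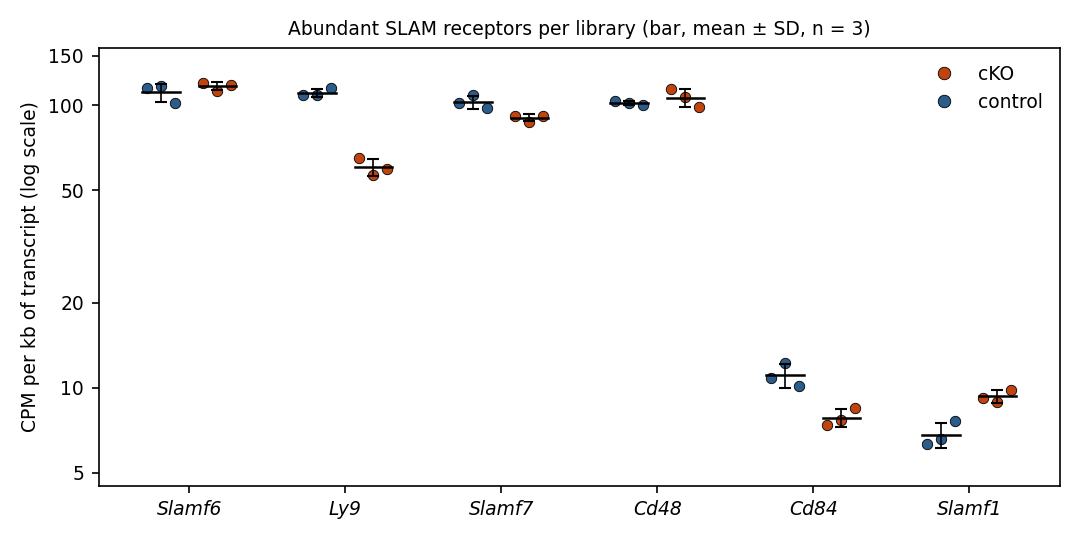
Level of the 6 more abundant receptors in CPM per kb of transcript (log axis), 1 point per library, with bars for the mean and whiskers for 1 SD (n = 3 each). *Ly9* lies with the other abundant receptors in control libraries (111 CPM per kb) and below them in cKO libraries (60.6 CPM per kb), and *Cd84* and *Slamf1* change places.

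The switch motifs are where the SAP-type adaptors bind, and their coding sites are shown for the 6 receptors that have them in their tails. The pattern searched in the translated coding sequences was threonine, any residue, tyrosine, any 2 residues, then valine or isoleucine. Each line gives 18 bases of coding sequence on GRCm38, on the strand of the gene, with the tyrosine codon in capitals.
Ly9 site 1, chr1:171593912-171593929: actccaTATgataaagtg
Ly9 site 2, chr1:171593438-171593455: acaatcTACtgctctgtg
Cd84 site 1, chr1:171884605-171884622: acagtaTATgctgtagtt
Cd84 site 2, chr1:171885601-171885618: accattTATtcctcagtg
Slamf1 site 1, chr1:171792339-171792356: actattTATgcccaagta
Slamf1 site 2, chr1:171799588-171799605: acagttTATgccagtgtg
Slamf6 site 1, chr1:171939437-171939454: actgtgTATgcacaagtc
Slamf6 site 2, chr1:171941664-171941681: acaattTACtccatagtt
Slamf7 site 1, chr1:171636327-171636344: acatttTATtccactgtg
Cd244 site 1, chr1:171577838-171577855: acaataTATgaatatgtc
Cd244 site 2, chr1:171579144-171579161: accatgTACtctatgata
Cd244 site 3, chr1:171580788-171580805: acagtaTATtcagtagtc
Of the 4 matches of *Cd244*, the last spans an exon junction and reads accgtgTACgaggaggtt. *Slamf9* had 0 matches, and the 1 match in *Cd48* is in its extracellular part, since CD48 has no tail. Among 21847 protein-coding genes of GENCODE M21, 7.87% held at least 1 match and 0.6% held 2 or more. The receptors with 2 sites included *Ly9*, *Cd84*, *Slamf1* and *Slamf6*. *Ly9* was called lower, *Cd84* was lower and *Slamf1* higher by adjusted p alone, and *Slamf6* did not pass the test.

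Of the other genes of the pathway, 31 were listed and 28 tested, of which 1 was called higher and 7 lower. The list was written with earlier results of these data known, so nothing is read from its counts or those of its parts. All genes tested are the background (10.4% higher and 10.6% lower). The median log2 fold change of the list was −0.23, where that of all genes tested was 0.00.

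Among receptors and counter-receptors, *Cd2*, a related adhesion receptor that also binds CD48, averaged 18.5 ± 1.77 CPM in cKO and 25 ± 3.67 CPM in control libraries (SD, n = 3 each). Its log2 fold change was −0.44 (adjusted p = 0.0151 from edgeR), under the fold cutoff. *Slamf8* was listed at 0 in all libraries.

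Of the 8 Src family kinases, which phosphorylate the tails or are brought to them, 4 were called lower (10.6% of all genes tested). *Fyn*, the kinase that SAP recruits to SLAM receptors, stood at 155, 158 and 183 CPM in cKO replicates 1, 2 and 3, and at 313, 319 and 273 CPM in control replicates 1, 2 and 3. Its groups were well apart, and *Fyn* fell by 0.87 on the log2 scale (standard error 0.08, adjusted p = 1.58e-05 from edgeR). *Blk*, a kinase of B cell receptor signaling, stood at 176, 148 and 161 CPM in cKO and at 303, 301 and 277 CPM in control libraries. *Blk* fell by 0.86 (standard error 0.07, adjusted p = 7.31e-06 from edgeR). *Lck* fell by 0.64 from a control mean of 38.1 CPM, and *Src* fell by 1.12 from a control mean of 7.77 CPM. *Lyn*, the main Src family kinase of the B cell receptor, overlapped between groups with a log2 fold change of 0.09 (95% interval −0.09 to 0.28, adjusted p = 0.387 from edgeR). *Fgr* and *Yes1* also overlapped between groups.

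Of the 4 phosphatases and Csk, which oppose these kinases or act when SAP-type adaptors are missing, 1 was higher and 2 were lower by adjusted p alone in edgeR (24.1% and 24.5% of all genes tested), each by less than 1.5-fold. *Ptpn11*, which encodes SHP-2, averaged 176 ± 1.49 CPM in cKO and 134 ± 4.55 CPM in control libraries (SD, n = 3 each), with a log2 fold change of 0.40 (adjusted p = 9.86e-05 from edgeR). *Ptpn6*, which encodes SHP-1, had a log2 fold change of −0.24 and *Csk* one of −0.28. *Inpp5d*, which encodes SHIP1, overlapped between groups with a log2 fold change of 0.02.

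Of the 12 effectors placed downstream of SAP and EAT-2, 11 were tested, with 1 called higher and 2 lower (10.4% and 10.6% of all genes tested). *Vav3*, a guanine nucleotide exchange factor, stood at 45.9, 46.9 and 59.2 CPM in cKO replicates 1, 2 and 3, and at 20.3, 19.0 and 20.6 CPM in control replicates 1, 2 and 3. *Vav3* rose by 1.34 on the log2 scale (standard error 0.11, adjusted p = 7.82e-06 from edgeR). *Dok1* and *Dok2*, inhibitory adaptors that restrain Ras signaling, fell by 0.88 and by 0.92. *Plcg1*, a phospholipase C of the kind that EAT-2 engages in NK cells, averaged 47.0 ± 2.17 CPM in cKO and 67.2 ± 1.5 CPM in control libraries (SD, n = 3 each), with a log2 fold change of −0.52 (adjusted p = 0.000102 from edgeR) under the fold cutoff. *Plcg2*, its relative that B cells use most, overlapped between groups, with a log2 fold change of 0.05 (95% interval −0.06 to 0.16).

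Of the 4 partners of SLAMF1 at phagosomes, *Becn1*, which encodes Beclin 1, was called lower (10.6% of all genes tested). It stood at 80.2, 78.4 and 85.6 CPM in cKO replicates 1, 2 and 3, and at 138, 139 and 137 CPM in control replicates 1, 2 and 3. *Becn1* fell by 0.76 on the log2 scale (standard error 0.05, adjusted p = 3.56e-06 from edgeR). *Pik3c3*, *Pik3r4* and *Uvrag* were not called, with log2 fold changes of −0.20, −0.23 and 0.20.

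**Figure D4:**
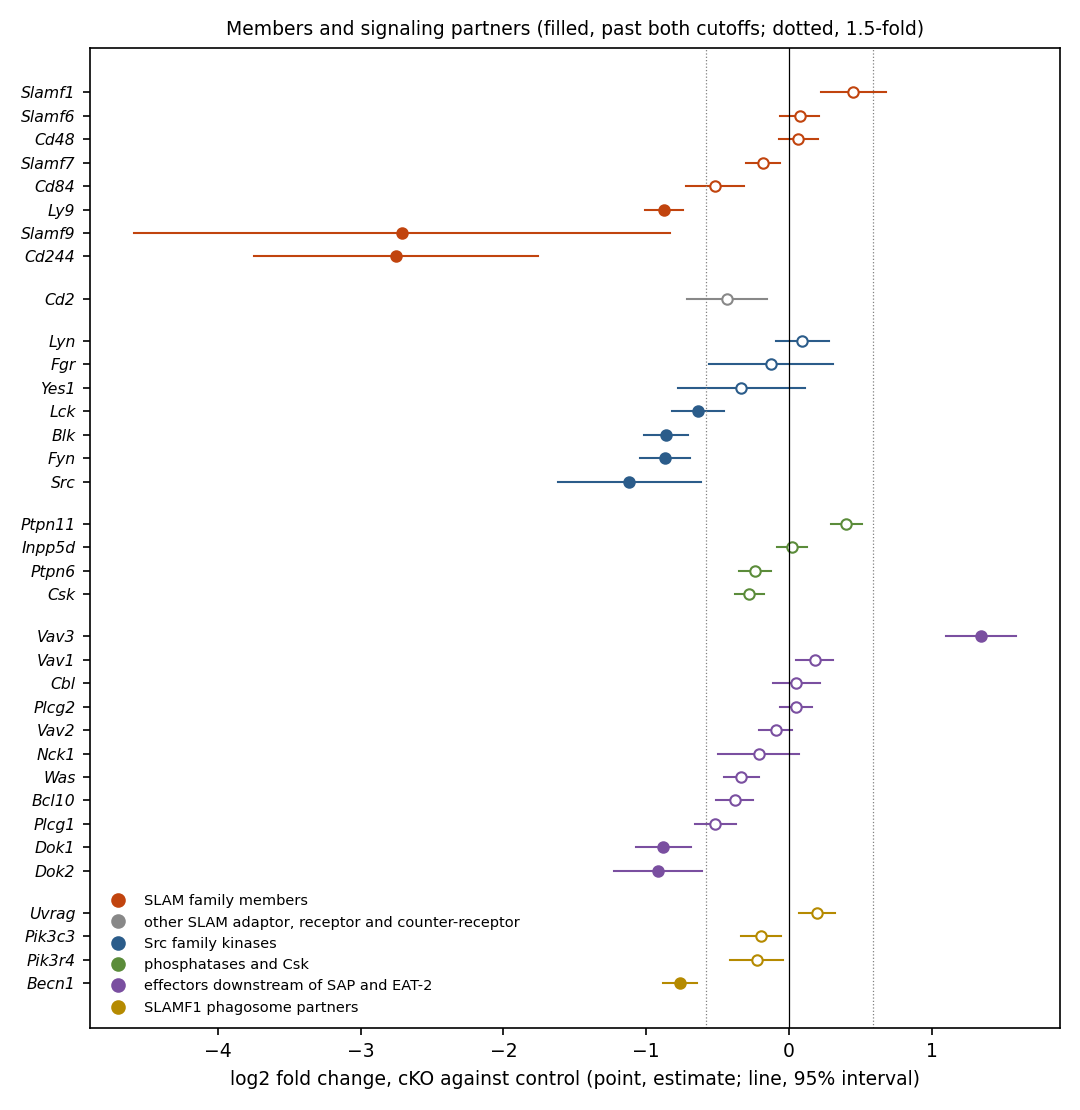
Log2 fold change of cKO against control (points) with its 95% interval (lines) for the 8 receptors and 27 of the 28 tested partner genes, by list, with filled points for genes past both cutoffs and dotted lines at 1.5-fold. *Sh2d1b1* is left out because it has 2 counts in all cKO libraries together. *Cd244*, *Slamf9* and *Ly9* are filled and negative among the receptors, and *Vav3* is filled and positive among the partners. *Cd244* and *Slamf9* passed the filter on low counts only through the control libraries.

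Apart from *Slamf9* and the adaptors, the receptors lie in a cluster of 7 genes spanning 393978 bases on chromosome 1 of GRCm38, in the order *Cd244*, *Ly9*, *Slamf7*, *Cd48*, *Slamf1*, *Cd84* and *Slamf6*. The log2 fold changes along this order were −2.75, −0.88, −0.18, 0.06, 0.45, −0.52 and 0.07. The differences were thus negative at one end, near 0 or positive in the middle and mixed at the other end. Of 39 neighbours within 250 kb of the members, 27 were tested, 3 were called higher and 1 lower, which is 14.8% where 21% of all genes tested were called. *Pea15a*, about as far from the cluster as the window allows, fell by 1.10 (adjusted p = 1.89e-05 from edgeR). *Gm7694* and *Nos1ap*, near the adaptors, rose by 1.30 and 1.34, and *Igsf9*, near *Slamf9*, rose by 0.98. The *Nos1ap* call was lost without cKO replicate 1, cKO replicate 2 or control replicate 1, with adjusted p-values of 0.0672, 0.143 and 0.0597 from edgeR, and with *Xist* as a covariate (adjusted p = 0.0507). The median over the tested neighbours was 0.08 on the log2 scale.

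**Figure D5:**
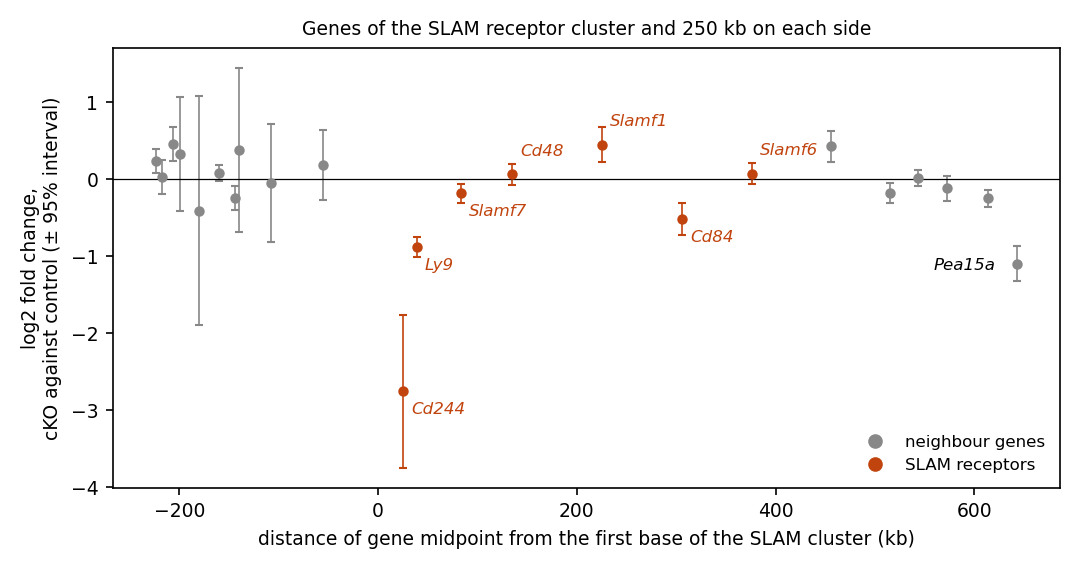
Log2 fold change of cKO against control, with 95% intervals, of the tested genes in the SLAM receptor cluster and 250 kb on each side, placed by the distance of the gene midpoint from the first base of the cluster (kb). *Cd244* (−2.75) and *Ly9* (−0.88) at the start of the cluster are the lowest receptors, and the other 5 lie between −0.52 and 0.45.

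The genes whose mean-centred log2 CPM over the 6 libraries lay closest to that of *Sh2d1b1*, among 11406 genes with a mean of at least 1 CPM, were *Jchain*, *Trib3*, *Pglyrp1*, *Extl1* and *Lrrc32*. The log2 values used a prior count of 2, which sets the value of *Sh2d1b1* where it had 0 counts, so the distances and their order depend on that choice. The root mean square distances were 0.767, 0.822, 0.924, 0.966 and 0.998 on the log2 scale, and their Pearson's r with *Sh2d1b1* was 0.94 to 0.96. Each was much lower in all 3 cKO libraries, so the points form 2 groups of 3, and no p is given. *Pglyrp1*, which encodes a peptidoglycan recognition protein, averaged 1.56 ± 0.756 CPM in cKO and 17.8 ± 1.69 CPM in control libraries (SD, n = 3 each). *Extl1* stood at 0.834 ± 0.528 and 8.60 ± 0.618 CPM, and *Lrrc32*, which encodes the TGF-β docking receptor GARP, at 0.938 ± 0.544 and 10.1 ± 1.75 CPM.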

How the data were processed

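Poly(A) RNA-seq libraries of YFP+ iGCBs with 3 cKO and 3 control replicates were analysed. Trimmed reads had been aligned by the authors with HISAT2 (mm10) and assembled into levels with StringTie. They deposited gene and RefSeq transcript tables of estimated counts from its prepDE script, which multiplies coverage by length, so a count need not be 1 fragment. Versions, the annotation release, strand and the read length setting are not given in the sources used here. The estimated counts were whole and not normalized. Genes were filtered (filterByExpr, minimum count 10), scaled by TMM and tested with edgeR 4.0.16 (glmQLFit, glmQLFTest, R 4.3.3) without covariates, with Benjamini-Hochberg adjustment. The same fit was run on transcripts, 34669 of 36026 being matched to genes. DESeq2 1.42.0, other scalings and filters, counts divided by 2, a replicate block, *Xist* as a covariate and each library left out were alternatives. The fits were tested on simulated data. The members and gene lists were chosen with earlier results of these data known. The text names all members, *Eif3e*, partners and neighbours past both cutoffs, partners that did not pass, and the 5 genes closest to *Sh2d1b1*, with markers and mapped positions as context. Promoter windows are from RefSeq and gene positions from GENCODE M21, matched by symbol. Protein sequences were not used here, and the values of 1 partner gene are not reported here. The smallest p of an exact permutation test is 0.1 with 3 libraries a group.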

Additional observations from a re-analysis of the deposited data

How the results depend on the processing

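Directions of the 9 tested members were the same under every alternative in which they were tested. For *Sh2d1b1* the direction is the selection itself, and *Cd244* and *Slamf9* entered the test only through the control libraries. Nothing is read from the directions of these 3. Without a fold cutoff, 3204 genes were higher and 3264 lower, 1 member was higher, 4 partners were higher and 15 lower, and 7 neighbours were higher and 6 lower. Tested against 1.5-fold, 584 genes were higher and 580 lower, and 0 neighbours were higher. With at least 10 counts in every library, 1 member was called lower (*Ly9*), because *Sh2d1b1*, *Cd244* and *Slamf9* were then not tested. Leaving out each library in turn, the count of member transcripts called lower ranged from 2 to 4, and the count of members called lower from 3 (without control replicate 2) to 4. The replicate numbers were not treated as pairs in the main fit. For proliferation, death and surface proteins of iGCBs the study used paired t tests. Deviations of same-numbered libraries from their group means correlated at 0.00279, 0.11 and 0.196. With 3 libraries a group, these values cannot exclude a pairing. With the replicate block 1 member transcript was called lower (NR_102726) and *Slamf9* had an adjusted p of 0.0526 in edgeR, and the cause was not tested. The other 271 values under alternatives kept their call, or, for counts, stayed within 1.5 times. The values of *Sh2d1b1*, *Cd244* and *Slamf9* rest on few counts, at most 98 in a library.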

Other observations

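Among the marker lists of other cell types, some genes were present in all libraries and differed between groups. *Prf1*, which encodes perforin, had 131, 81 and 102 counts in cKO replicates 1, 2 and 3, and 292, 373 and 266 counts in control replicates 1, 2 and 3, and fell by 1.66 on the log2 scale (adjusted p = 0.00024, edgeR). *Lat*, which encodes a scaffold of T cell receptor signaling, had 82, 57 and 55 counts in cKO and 237, 222 and 141 counts in control replicates 1, 2 and 3, and fell by 1.71 (adjusted p = 0.00045 from edgeR). *Adgre1*, which encodes the macrophage antigen F4/80, had 165, 210 and 235 counts in cKO and 28, 36 and 83 counts in control replicates 1, 2 and 3, and rose by 1.96 (adjusted p = 0.00203 from edgeR). *Zbtb46*, a transcription factor gene of dendritic cells, averaged 23.9 ± 1.75 CPM in cKO and 13.4 ± 2.26 CPM in control libraries (SD, n = 3 each), and rose by 0.83 (adjusted p = 0.000471 from edgeR). *Flt3*, a receptor tyrosine kinase gene of progenitors and dendritic cells, averaged 22.8 ± 7.77 CPM in cKO and 37.2 ± 1.5 CPM in control libraries (SD, n = 3 each), and fell by 0.70 (adjusted p = 0.0143 from edgeR). The groups of these 5 genes did not overlap. Per the study's methods, B cells were enriched before culture by removing cells that bound antibodies to CD43, CD9, CD5, TER119 or CD93, and YFP+ cells were sorted after it. Whether these genes came from B cells or from other cells was not tested.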
